A study of Saccharomyces cerevisiae with 8 samples.

Results

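The yeasts CAT-1 and JP1, both used in Brazilian sugarcane ethanol mills, were compared during a fermentation, 6 h after its start (T6h). Of the 8 samples of the series, 4 entered the comparison, 2 of CAT-1 (replicates 2 and 5) and 2 of JP1 (replicates 1 and 4), taken by their labels. JP1 is a homothallic diploid from Japungu Agroindustrial, and CAT-1 a heterothallic diploid from Usina Catanduva. Per the labels, the cells of both strains had first been grown in rich glucose medium (YPD) at 33 °C, in successive 24 h batches, until there was enough biomass to ferment. The composition of the fermentation medium is not given in the sources used here. Total RNA was labelled with Cy5 (red) and hybridised to Agilent arrays with 1 probe for each of 6256 genes, beside Cy3-labelled (green) RNA of the laboratory strain BY4741 taken before fermentation. The labelling protocol also mentions a dye swap, which the sample labels do not show, so the dye of each RNA rests on the labels. Each of 2 slides carried 1 array of each strain, so the strains were compared within slides. No T0h array was used.

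When glucose is plentiful, yeast ferments it to ethanol and keeps the genes for respiring ethanol, acetate and lactate repressed. As glucose runs out, transporters of lower affinity give way to those of higher affinity, ethanol is oxidised to acetate, and the acetyl groups are passed to mitochondria by carnitine or into the glyoxylate cycle, from which gluconeogenesis starts. Cells in a distillery also meet ethanol, acid and heat, which unfold proteins and call up chaperones, while ribosome production follows growth.

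The quantity given for a gene is its level, the log2 of the background-corrected and quantile-normalised red signal, and a difference is CAT-1 minus JP1 on that scale, as the mean of both slides, so a difference of 1 is 2-fold. The red median signal was 369 and 250 on the JP1 arrays (slides 1 and 2) and 60 and 83 on the CAT-1 arrays, over a background of 21 to 22. The CAT-1 arrays were thus the dimmer, with 82.0% and 81.9% of the probes well above background against 92.9% and 92.7%. Levels over the 5765 genes tested correlated at r = 0.988 between the JP1 arrays and 0.970 between the CAT-1 arrays, and at 0.887 to 0.892 between strains (across genes, which are not independent replicates). The median absolute difference of a gene was 0.13 between the JP1 arrays, 0.22 between the CAT-1 arrays, and 0.36 (slide 1) and 0.35 (slide 2) between the strains of a slide. The labels call the samples biological replicates without saying that they came from separate cultures, so p-values measure only the spread between these arrays. In the deposited value table, the log ratios of the slide 1 arrays appeared under the T0h names of the same strains (r = 0.944 for JP1 and 0.876 for CAT-1), whereas both slide 2 columns followed their own arrays (0.898 and 0.911). By that match the slide 1 arrays keep their strain names but not their time point. The columns named for the slide 1 T6h samples, however, followed arrays labelled as other strains. That of JP1 replicate 1 followed the BY4741 T6h array (0.871, own array 0.827). That of CAT-1 replicate 2 followed a JP1 T0h array (0.862, own array 0.254). Strain and time point of slide 1 therefore rest on the labels, and values of the leading genes and lists are given for each slide.

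The strains differed in a large part of the transcriptome. In CAT-1, most genes tested of gluconeogenesis with the glyoxylate cycle and of protein folding were higher, and most of those for cytosolic ribosomal proteins, ergosterol synthesis and oxidative stress were lower. Of the 5765 genes, 2316 (40.2%) passed limma's moderated test with slide as a block, at a Benjamini-Hochberg adjusted p below 0.05. Of these, 1131 (19.6% of those tested) were higher in CAT-1 and 1185 (20.6%) were lower. A difference of 2-fold or more was reached by 324 called genes in the first direction and by 308 in the second, and one of 4-fold or more by 63 and 21. The fit gave all genes the same standard error, 0.19, so the adjusted p follows the size of the difference alone, and a gene was called where it differed by 0.44 or more. With 2 arrays against 2, an exact permutation test cannot go below p = 0.333, so every call rests on the spread pooled over all genes. Arrays of the strains did not overlap for 2257 of the 2316 called genes, but also for 68.6% of all genes tested. For genes picked below by the size of their difference, non-overlap follows largely from that choice and is a description only. Without JP1 replicate 1 or JP1 replicate 4, whose pair was the closer, 590 or 610 genes were called, against 2260 or 2304 without CAT-1 replicate 2 or CAT-1 replicate 5. When either JP1 array was left out, the calls within a list fell by over 1.5 times for 38 of the 43 gene lists described below, and those lower counts are given for the leading lists. The median difference over all genes was -0.03. Counts within a list stand beside the 19.6% of all genes called higher and 20.6% called lower.

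**Figure D1:**
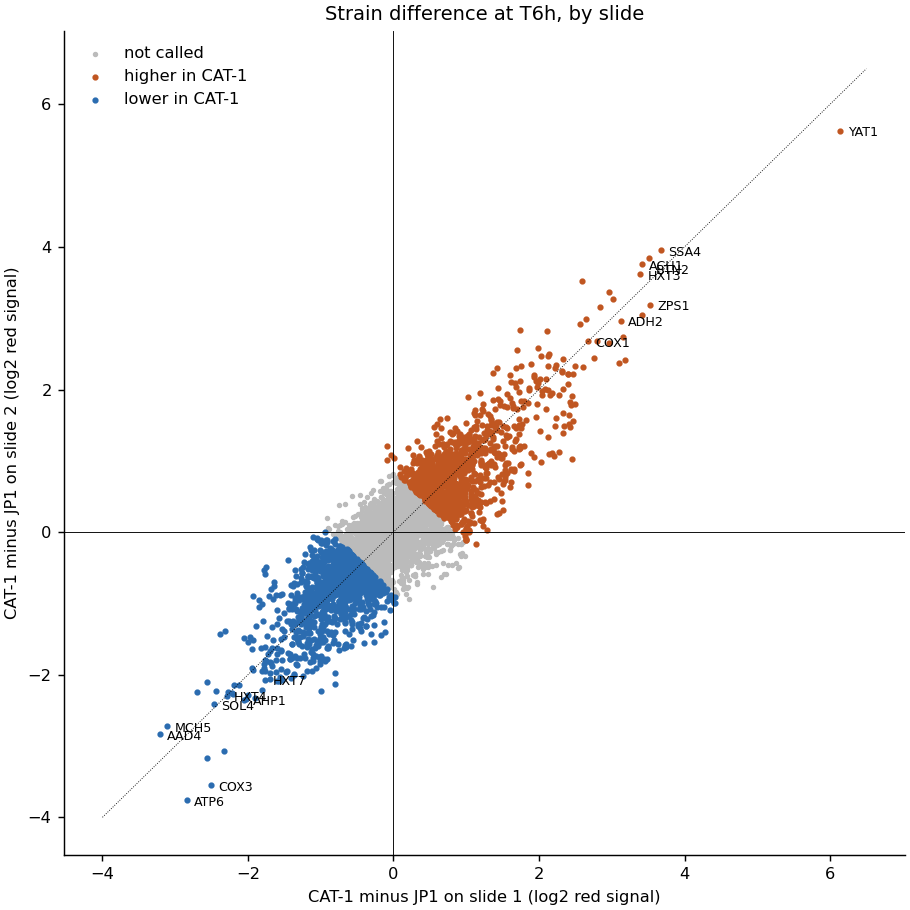
Difference between CAT-1 and JP1 on slide 2 (vertical axis) against slide 1 (horizontal axis), both on the log2 scale of the red signal, with 1 point for each of 5765 genes. Of the 2316 called genes, coloured by direction, 2302 had the same sign on both slides, and the dotted line marks equal differences.

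The differences of slides 1 and 2 correlated at r = 0.848 across genes (Spearman's rho 0.793). When the red signal was replaced by its loess-normalised log ratio to the green reference, 460 genes (7.98%) were called, 62.2% of them higher in CAT-1 against 48.8% for the red signal, and 430 were called by both measures, all in the same direction. On slide 2 the green channel was little above its background, with 20.8% and 11.2% of the probes well above it. When each array was centred on its 75th percentile in place of quantile normalisation, the median of all genes moved by 0.56, and 79.9% of the calls were higher in CAT-1. Directions below are therefore relative to the bulk of the genes. Gene length moved with the difference: the median was -0.17 in the shortest eighth of the genes with a known length and 0.16 in the longest (rho = 0.263 over 5550 genes, lengths from the RefSeq table of assembly R64). Its part in the results was not tested beyond centring each length eighth on its own median, and those counts are given where they bear on a list.

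Several genes of ethanol and acetate use, of the carnitine shuttle and of gluconeogenesis were higher in CAT-1, though not every member of these steps. The largest difference of the whole comparison belonged to YAT1, the carnitine acetyltransferase of the outer mitochondrial membrane, whose level was 7.68 and 7.71 on the JP1 arrays and 13.82 and 13.34 on the CAT-1 arrays, a difference of 5.89 or 59.1-fold. Its unprocessed red signal was 446 and 308.5 on the JP1 arrays and 6226.5 and 6077.5 on the CAT-1 arrays, which were dimmer as a whole before normalisation. YAT2, another carnitine acetyltransferase, stood at 9.02 and 8.64 on the JP1 arrays and 11.61 and 12.16 on the CAT-1 arrays. For neither gene did the strains overlap, and the arrays of a strain differed by far less than the strains. The third enzyme of this kind, CAT2, was not called (-0.23), while CRC1, which carries acetylcarnitine across the inner membrane, was higher (1.48).

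Upstream of these, ADH2, which oxidises ethanol to acetaldehyde, had levels of 6.72 and 6.76 on the JP1 arrays and 9.84 and 9.73 on the CAT-1 arrays. ALD6, the cytosolic acetaldehyde dehydrogenase, followed with 7.86 and 7.67 on the JP1 arrays and 10.19 and 10.099 on the CAT-1 arrays. ACH1, a mitochondrial enzyme that moves coenzyme A between succinate and acetate, stood at 8.77 and 8.71 on the JP1 arrays and 12.18 and 12.47 on the CAT-1 arrays. All 3 genes were clearly separated by strain, with differences of 3.04, 2.38 and 3.59. The acetyl-CoA synthetase gene ACS1 was higher by 1.20, though that call was lost in the loess log ratios, and the constitutive ACS2 was lower (-0.45), with its call lost in the loess log ratios.

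Of 20 tested genes of gluconeogenesis and the glyoxylate cycle, 16 were higher in CAT-1 and 0 lower, with a median difference of 1.20 (1.17 on slide 1 and 0.85 on slide 2). The loess log ratios called 11 higher and 0 lower, and centring by gene length 16 higher and 0 lower. There were 9 higher and 0 lower without JP1 replicate 1, and 10 and 0 without JP1 replicate 4. MLS1, malate synthase of the glyoxylate cycle, had levels of 6.80 and 6.88 on the JP1 arrays and 9.60 and 9.55 on the CAT-1 arrays. The level of PCK1, which makes phosphoenolpyruvate in the first committed step of gluconeogenesis, was 8.88 and 8.10 on the JP1 arrays and 11.44 and 11.02 on the CAT-1 arrays. Both pairs of CAT-1 arrays lay above both JP1 arrays, and the JP1 arrays differed from each other more for PCK1 than for MLS1. JEN1, the permease for lactate and pyruvate, was higher by 2.32, and ADR1, an activator of ADH2 and other glucose-repressed genes, by 2.30. Of the citrate synthases, the peroxisomal CIT2 (1.71) and the mitochondrial CIT3 (2.81) were higher, and CIT1, the main mitochondrial form, was lower by a small difference (-0.57) that lost its call in several alternatives. The tricarboxylic acid cycle as a list showed no common direction, with 6 higher and 4 lower of 17 and a median of 0.12 that turned to -0.67 under 75th percentile centring, relative to all genes.

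The hexose transporters differed gene by gene. HXT3, a transporter of low affinity for glucose, had levels of 8.44 and 8.63 on the JP1 arrays and 11.84 and 12.25 on the CAT-1 arrays, a difference of 3.50. HXT4, a transporter of higher affinity, went the other way with 10.15 and 10.02 on the JP1 arrays and 7.86 and 7.72 on the CAT-1 arrays. HXT7, a high-affinity transporter that is near-identical to HXT6 and shares signal with it, stood at 15.13 and 15.08 on the JP1 arrays and 13.36 and 13.01 on the CAT-1 arrays. So CAT-1 had more of the low-affinity HXT3 and less of HXT4 and HXT7 on both slides. Of the rest, HXT10 was lower in CAT-1 (-1.73), HXT5, a gene of slow-growing cells, was higher (1.61), HXT6 was lower (-0.88, a call lost in the loess log ratios), and HXT1, the other main low-affinity transporter, was not called (0.21). In all, 5 of 19 genes of the list were higher and 6 lower, with a median of -0.26 that turned to 0.55 under 75th percentile centring, relative to all genes. MIG2, a glucose-dependent repressor, had levels of 7.41 and 7.60 on the JP1 arrays and 9.90 and 9.39 on the CAT-1 arrays, and its partner MIG1 differed by 0.49. MIG1 and MIG2 were chosen after their values had been seen.

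Glycolysis and the ethanol pathway moved in both directions, with 8 of 25 genes higher in CAT-1, 7 lower and a median of 0.08. The main alcohol dehydrogenase ADH1 was not called (-0.02), and the main pyruvate decarboxylase PDC1 was lower by a little (-0.53). PDC6, a minor pyruvate decarboxylase, was lower (-1.37), as was the hexokinase HXK1 (-1.16), while PFK2, the beta subunit of phosphofructokinase, was higher (1.19). The calls of PDC1, HXK1 and PFK2 were lost in the loess log ratios. Of 12 genes for sucrose, maltose and isomaltose, 5 were higher and 1 lower, the latter being the invertase gene SUC2 (-1.84, also lost in the loess log ratios). The isomaltases IMA3 and IMA4, which are near-identical and cannot be told apart by signal, were both higher by 1.05, IMA3 with its call lost in the loess log ratios. Of 12 glycerol genes 6 were higher and 1 lower, led by the glycerol-phosphatases GPP1 (1.95) and GPP2 (1.85). In the loess log ratios 2 glycerol genes were called higher and 0 lower. The dehydrogenases GPD1 (-0.26) and GPD2 (-0.10) were not called, GPD2 being not well above background in CAT-1.

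**Figure D2:**
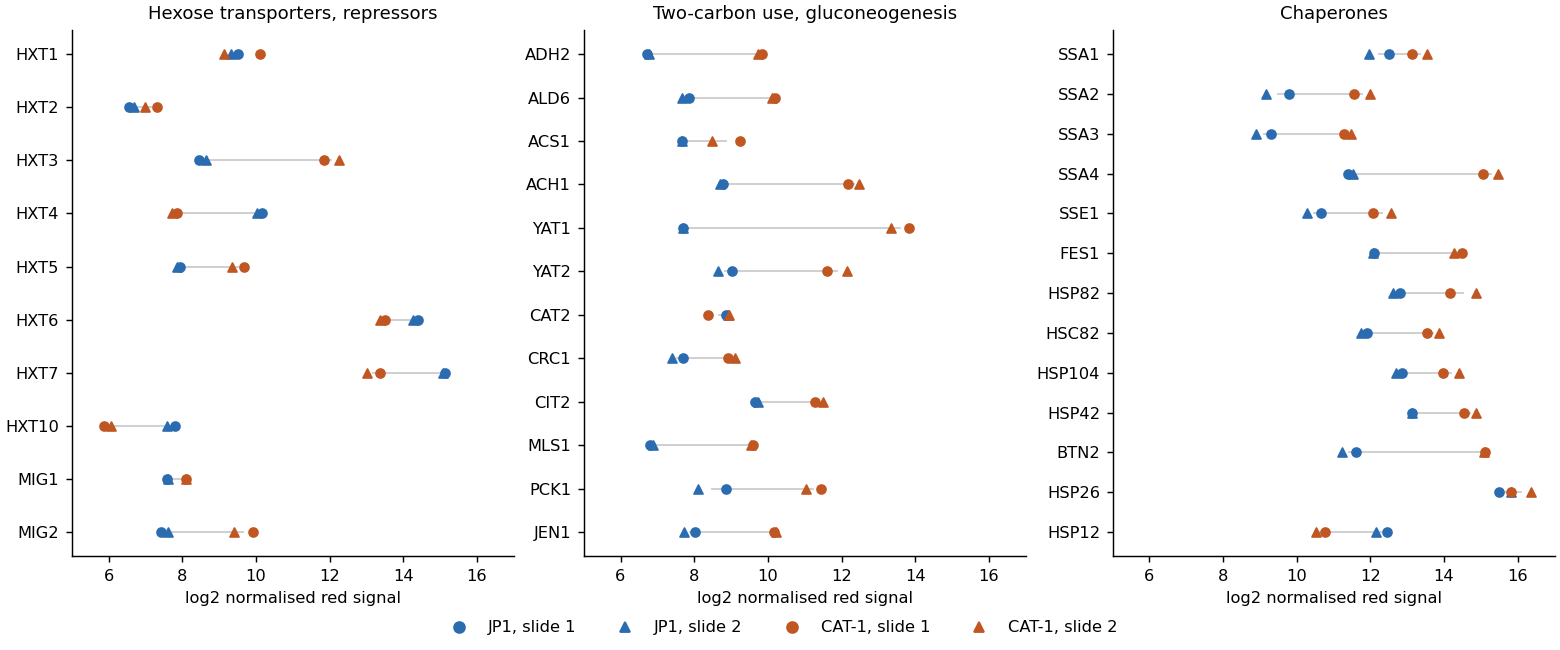
Level (log2 normalised red signal, horizontal axis) of hexose transporters with the repressors MIG1 and MIG2 (left), of genes of ethanol, acetate and lactate use (middle) and of chaperones (right) on each of the 4 arrays, with a line between the strain means. HXT3 lies higher in CAT-1 and HXT4 and HXT7 lower, the carnitine acetyltransferases YAT1 and YAT2 are far apart while CAT2 is not, and HSP12 is the one chaperone shown that is lower in CAT-1. Signals of different probes are not comparable.

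Chaperones were higher in CAT-1, with the second largest median among the 43 lists after gluconeogenesis. Of 35 genes, 25 were higher in CAT-1 and 3 lower, with a median of 1.11 (0.71 on slide 1 and 1.49 on slide 2), and the loess log ratios called 17 higher and 2 lower. SSA4, the Hsp70 made after heat shock, had levels of 11.38 and 11.53 on the JP1 arrays and 15.06 and 15.48 on the CAT-1 arrays, a difference of 3.81 or 14.1-fold. BTN2, which gathers misfolded proteins for sorting, stood at 11.61 and 11.23 on the JP1 arrays and 15.12 and 15.08 on the CAT-1 arrays. FES1, a nucleotide exchange factor of Hsp70, had 12.08 and 12.07 on the JP1 arrays and 14.48 and 14.28 on the CAT-1 arrays. In each of the 3 genes, both CAT-1 arrays lay more than 2 above both JP1 arrays on the log2 scale. All 4 SSA genes of cytosolic Hsp70 were called higher, SSA1 by 1.11, SSA2 by 2.29 and SSA3 by 2.28, although their sequences are alike enough to share signal. Both Hsp90 genes, HSP82 (1.80) and HSC82 (1.86), were higher, with the Hsp110 gene SSE1 (1.86), the disaggregase HSP104 (1.42) and the small heat shock protein HSP42 (1.56). HSP26, another small heat shock protein, was at the threshold (0.44, limma adjusted p = 0.0483) and turned negative in the loess log ratios (-0.07). HSP12, a small membrane-bound stress protein, was lower in CAT-1, with levels of 12.44 and 12.14 on the JP1 arrays and 10.77 and 10.52 on the CAT-1 arrays.

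Most oxidative stress genes were lower in CAT-1 in the red signal. Of 31 genes of oxidative stress, 21 were lower in CAT-1 and 4 higher, with a median of -0.55 (-0.43 on slide 1 and -0.61 on slide 2). These genes are short, with a median length of 702 bases, and centring by gene length left 4 higher and 14 lower, while the loess log ratios called 1 higher and 3 lower. There were 2 higher and 5 lower without JP1 replicate 1, and 2 and 7 without JP1 replicate 4. AHP1, a thiol peroxiredoxin, had levels of 14.56 and 14.57 on the JP1 arrays and 12.53 and 12.22 on the CAT-1 arrays. OYE3, an NADPH oxidoreductase, was lower (difference -2.13), and CTT1, the cytosolic catalase, stood at 11.21 and 11.08 on the JP1 arrays and 9.68 and 8.999 on the CAT-1 arrays. No CAT-1 array reached a JP1 array for AHP1 or CTT1. CTA1, the peroxisomal catalase, was higher in CAT-1 (1.43). The glutathione peroxidase GPX1 (-1.60), the peroxiredoxin TSA1 (-1.22) and the superoxide dismutase SOD1 (-1.21) were also lower, with calls lost in the loess log ratios.

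Genes of drying and the stationary phase were split, 7 higher and 10 lower of 19. STF2 (-1.88), tied to survival of drying, and TFS1 (-1.79), an inhibitor of carboxypeptidase Y, were lower, whereas the hydrophilin GRE1 (2.06) and RGI2 (2.12), a gene of respiratory growth, were higher. Trehalose and glycogen genes were lower in 9 and higher in 3 of 21 cases, with GPH1, glycogen phosphorylase, at -1.41, GSY2, glycogen synthase, at -1.24, and TPS1, trehalose-6-phosphate synthase, at -0.90. None of the lower trehalose and glycogen genes was called in the loess log ratios, where this list had 1 higher and 0 lower.

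**Figure D3:**
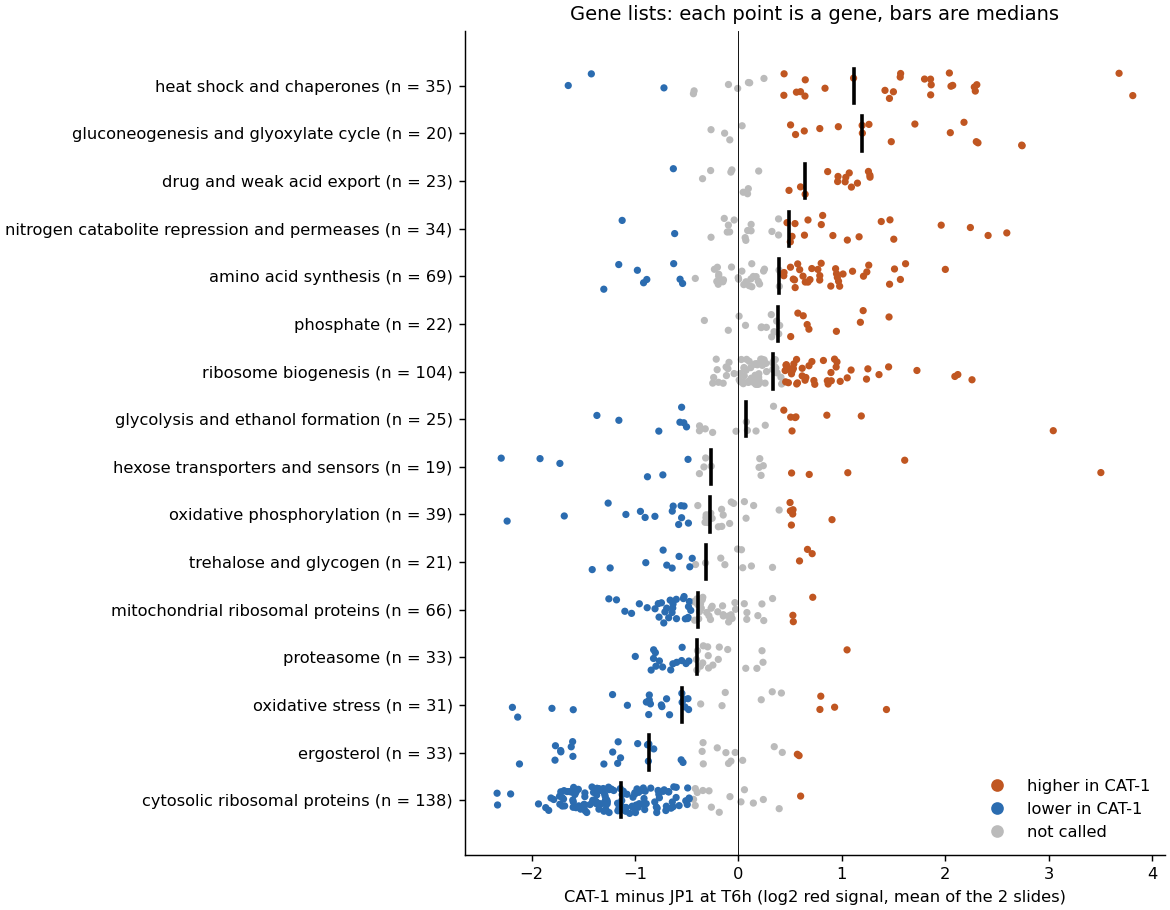
Difference between CAT-1 and JP1 (log2 red signal, horizontal axis) for every tested gene of 16 of the 43 lists, with the number tested beside each name and a bar at the median. Chaperones and gluconeogenesis have medians above 1, ergosterol synthesis lies at -0.87 and cytosolic ribosomal proteins at -1.14, beside -0.03 for all genes.

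Genes for the ribosome's own proteins were lower in CAT-1 nearly throughout, while genes for assembling it were not. Of 138 cytosolic ribosomal protein genes 123 were lower and 1, RPL18B, was higher, with a median of -1.14 (-0.92 on slide 1 and -1.39 on slide 2). Both subunits took part, with 51 of 56 small-subunit genes (median -1.11) and 67 of 76 large-subunit genes (median -1.15) lower, and 5 of 6 stalk genes. RPS23A, of the small subunit, had levels of 11.85 and 12.23 on the JP1 arrays and 9.41 and 10.004 on the CAT-1 arrays. Its duplicate RPS23B had 12.87 and 12.85 on the JP1 arrays and 10.31 and 10.75 on the CAT-1 arrays, and RPL31A of the large subunit 9.81 and 9.999 on the JP1 arrays and 7.76 and 7.65 on the CAT-1 arrays. In all 3 both CAT-1 arrays lay below both JP1 arrays. Most ribosomal proteins are made from duplicate genes of near-identical sequence, and of 58 such pairs both members were lower in 48, a single member in 7 and neither in 3. The members of a pair can share signal and are not independent. The loess log ratios called 0 higher and 35 lower. Ribosomal protein genes are short (median 771 bases, introns included), and centring by gene length left 3 higher and 104 lower. Leaving out JP1 replicate 1 or JP1 replicate 4 reduced the lower calls to 76 or 70.

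Of 104 ribosome biogenesis genes, 42 were higher in CAT-1 and 0 lower, with a median of 0.34 (0.28 on slide 1 and 0.39 on slide 2). The share called, 40.4%, was near the 40.2% of all genes, though none was lower, against 20.6% of all genes. RRP14, of pre-ribosome assembly, had levels of 8.04 and 8.40 on the JP1 arrays and 10.25 and 10.70 on the CAT-1 arrays. The RNA helicases HCA4 and DBP2 differed by 2.12 and 2.09, and NOP16 by 1.73. The helicases, RRP14 and NOP16 kept their calls in every alternative run, but the loess log ratios called 9 higher and 0 lower in the list, and the counts were 11 and 9 higher without JP1 replicate 1 or 4. In addition, 2 chaperone genes that serve newly made translation proteins stood among the largest differences of all. ZPR1, which helps fold translation elongation factor 1A, had levels of 8.30 and 8.14 on the JP1 arrays and 11.27 and 11.50 on the CAT-1 arrays. YAR1, which guards the ribosomal protein Rps3 until it is assembled, had 8.46 and 8.63 on the JP1 arrays and 11.11 and 11.62 on the CAT-1 arrays. Both were higher in CAT-1 on each slide, while RPS3 itself was lower (-1.70).

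Mitochondrial ribosomal proteins were lower in 28 and higher in 3 of 66 genes, with a median of -0.39, led by RSM27 (-1.25). The loess log ratios called none of them, and centring by gene length left 3 higher and 15 lower, with 0 higher and 4 lower without JP1 replicate 1, and 0 and 6 without JP1 replicate 4. Proteasome genes were lower in 15 of 33 cases (median -0.40), again with no lower call in the loess log ratios. There were 1 higher and 0 lower without JP1 replicate 1, and 0 and 0 without JP1 replicate 4, and centring by gene length left 1 higher and 10 lower. The 1 gene of the proteasome list called higher was RPN4 (1.05), the transcription factor that activates proteasome genes.

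Most ergosterol genes were lower in CAT-1. Of 33 ergosterol genes, 20 were lower and 2 higher, with a median of -0.87 (-0.89 on slide 1 and -0.65 on slide 2), and centring by gene length left 1 higher and 21 lower. ERG11, lanosterol 14-demethylase and the target of azole drugs, had levels of 12.06 and 11.36 on the JP1 arrays and 10.01 and 9.88 on the CAT-1 arrays. ERG28, a scaffold for the enzymes that remove the methyl groups at carbon 4, had 10.89 and 10.66 on the JP1 arrays and 8.98 and 8.33 on the CAT-1 arrays, and ERG26, one of those enzymes, 11.09 and 10.99 on the JP1 arrays and 9.09 and 9.45 on the CAT-1 arrays. JP1 lay above CAT-1 on both slides for each of the 3. ERG5, the C-22 desaturase, was lower by the same order (-1.72). The loess log ratios called 0 higher and 7 lower, and there were 0 higher and 12 lower without JP1 replicate 1, and 0 and 15 without JP1 replicate 4. Of 28 fatty acid and phospholipid genes, 9 were higher and 4 lower, with a median of 0.11 that turned to -0.26 under 75th percentile centring, relative to all genes. INO1, which makes inositol phosphate for phospholipids, had levels of 6.94 and 7.10 on the JP1 arrays and 9.18 and 9.45 on the CAT-1 arrays, and FAS2, the alpha subunit of fatty acid synthase, was higher by 1.36. OPI3, a methyltransferase of phosphatidylcholine synthesis, was lower (-1.15), a call lost in the loess log ratios.

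Permeases for amino acids were among the genes with large positive differences in CAT-1. Among 34 permeases and genes under nitrogen catabolite repression, 18 were higher and 2 lower, with a median of 0.49 (0.36 on slide 1 and 0.57 on slide 2), and the loess log ratios called 11 higher and 1 lower. There were 8 higher and 0 lower without JP1 replicate 1, and 8 and 1 without JP1 replicate 4. BAP2, a permease for branched-chain amino acids, had levels of 8.24 and 8.59 on the JP1 arrays and 10.996 and 11.02 on the CAT-1 arrays. Its relative BAP3 was higher by 2.24, and GAP1, the general amino acid permease, had 6.92 and 6.89 on the JP1 arrays and 9.41 and 9.22 on the CAT-1 arrays. CAR2, which breaks down ornithine from arginine, was higher by 1.96. In BAP2 and GAP1 no JP1 array reached a CAT-1 array. Of 69 amino acid synthesis genes 33 were higher and 8 lower, with a median of 0.40 that turned to -0.06 under 75th percentile centring, relative to all genes. The higher genes included LEU9 (2.0004) and LEU1 (1.51) of leucine synthesis, the glutamate dehydrogenase GDH3 (1.62) and the asparagine synthetase ASN1 (1.57). For amino acid synthesis the loess log ratios called 8 higher and 2 lower, and there were 10 higher and 1 lower without JP1 replicate 1, and 9 and 2 without JP1 replicate 4.

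The sulfur list was mixed, with 6 higher and 9 lower of 35, and its methionine permeases went opposite ways: the high-affinity MUP1 stood at 7.64 and 8.28 on the JP1 arrays and 9.65 and 10.42 on the CAT-1 arrays, and the low-affinity MUP3 was lower (-1.13). Of 27 purine and pyrimidine genes 10 were higher and 3 lower, led by URA2, the first enzyme of pyrimidine synthesis (2.04), and the IMP dehydrogenase IMD3 (1.33). In this list 48.1% were called, against 40.2% of all genes, and the loess log ratios called 2 higher and 0 lower. Phosphate genes were higher in 9 of 22 cases and lower in 0, with the transporter PHO84 at 1.21 and PHM7 at 1.46. The share called, 40.9%, was near the 40.2% of all genes, though none was lower. The loess log ratios called 6 phosphate genes higher and 0 lower.

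Vitamin genes did not move together. THI4, of thiamine synthesis, was lower in CAT-1, with levels of 9.77 and 9.93 on the JP1 arrays and 7.9996 and 8.03 on the CAT-1 arrays, within a list of 5 higher and 5 lower of 16. The vitamin B6 genes SNZ1 (1.18) and SNZ3 (1.12) were higher, 4 of 10 genes of their family in all, which share sequence, and none was lower. This share called, 40%, was near the 40.2% of all genes. Of 13 genes for biotin and NAD, 5 were higher, among them the nicotinic acid transporter TNA1 (1.32), and 3 lower. MCH5, a transporter of riboflavin, was among the largest negative differences, with levels of 11.49 and 11.26 on the JP1 arrays and 8.38 and 8.54 on the CAT-1 arrays.

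Transcripts of the mitochondrial genome went both ways by large amounts. COX1, subunit 1 of cytochrome c oxidase, had levels of 11.45 and 10.59 on the JP1 arrays and 14.13 and 13.26 on the CAT-1 arrays. COX3, subunit 3 of the same enzyme, had 10.13 and 10.99 on the JP1 arrays and 7.62 and 7.44 on the CAT-1 arrays, and ATP6, of the ATP synthase, 8.90 and 9.63 on the JP1 arrays and 6.06 and 5.87 on the CAT-1 arrays. CAT-1 was thus higher for COX1 and lower for COX3 and ATP6 on both slides, though these genes lie on 1 genome. COX2 (1.65), ATP8 (1.74) and COB (0.86) were higher, with all 3 calls lost in some alternative. ATP6 was not well above background on either CAT-1 array, so its level was at least 9.62-fold higher in JP1. The probes are annotated to genes of the reference strain, and whether the sequences of CAT-1 or JP1 differ from them was not tested. In all, 7 of 12 mitochondrially encoded genes were higher and 3 lower, with a median of 0.68 (0.93 on slide 1 and 0.38 on slide 2). The loess log ratios called 3 of them higher and 2 lower. OLI1 (0.51) and VAR1 (0.88), both called higher in the red signal, were among those that lost their calls there. Nuclear genes of oxidative phosphorylation were higher in 6 and lower in 14 of 39 cases, with a median of -0.28 that was 0.05 in the loess log ratios, and centring by gene length left 7 higher and 9 lower. STF1, which stabilises the inhibitor of ATP synthase, had levels of 10.31 and 10.74 on the JP1 arrays and 8.10 and 8.48 on the CAT-1 arrays. COX5B, the hypoxic form of cytochrome c oxidase subunit 5, was lower (-1.68), and its aerobic counterpart COX5A was not called (-0.08).

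At the cell surface, flocculation and adhesion genes were higher in 6 of 8 cases and lower in 0, whereas the loess log ratios called 2 higher and 0 lower. FLO11, which makes cells adhere and form films, had levels of 6.21 and 6.40 on the JP1 arrays and 8.03 and 7.98 on the CAT-1 arrays, and the flocculin FLO5 was higher by 1.45. The FLO genes share long repeats, and FLO1 (0.85) turned negative in the loess log ratios (-0.11). Cell wall genes were higher in 5 and lower in 13 of 40, with the exoglucanase EXG1 (-1.91) and the wall protein PST1 (-1.72) lower. Their median was -0.09 on slide 1 and -0.41 on slide 2. In the loess log ratios it was 0.20 on slide 1 and -0.29 on slide 2, with 2 cell wall genes called higher and 3 lower. Among 30 seripauperin and anaerobic mannoprotein genes, 8 were higher and 4 lower, a share called of 40% against 40.2% of all genes. Their median of 0.35 turned to -0.33 under 75th percentile centring, relative to all genes. These counts moved with the setting: centring by gene length gave 17 higher and 3 lower, the loess log ratios 0 higher and 3 lower, and the variance trend and both forms of the processed signal 1 higher and 3 lower. There were 0 higher and 3 lower without JP1 replicate 1, and 1 and 1 without JP1 replicate 4. DAN1, a mannoprotein of anaerobic cells, had levels of 8.20 and 8.39 on the JP1 arrays and 5.93 and 6.15 on the CAT-1 arrays and was not well above background on the CAT-1 arrays, which makes it at least 4.47-fold higher in JP1.

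Export pumps for drugs and weak acids were higher in 14 of 23 cases and lower in 1, with a median of 0.65 (0.78 on slide 1 and 0.75 on slide 2). The loess log ratios called 3 higher and 1 lower, and there were 8 higher and 0 lower without JP1 replicate 1, and 8 and 0 without JP1 replicate 4. The polyamine exporter TPO2 (1.27) and the sulfite pump SSU1 (1.15) kept their calls in every alternative run, whereas TPO1 (1.27) and PDR12 (1.26), the exporter of weak organic acids, were not called in the loess log ratios. For iron, 7 of 27 genes were higher and 3 lower (37.0% called, against 40.2% of all genes). For copper and zinc, 3 of 18 were higher and 9 lower, the largest difference being that of ZPS1, a surface protein made when zinc is short, whose levels were 6.41 and 6.60 on the JP1 arrays and 9.94 and 9.79 on the CAT-1 arrays. For this list the loess log ratios called 2 higher and 0 lower, and centring by gene length left 3 higher and 6 lower. Of the 3 aquaporin genes AQY1 (1.27) and AQY2 (0.75) were higher and AQY3 (-1.79) lower, the last 2 with calls lost in the loess log ratios.

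The 15 largest differences in each direction, among named genes with the same sign on both slides in the red signal and in the loess log ratios, all kept their calls in every alternative that had a test, with limma adjusted p from 6.31e-194 to 1.11e-27. Both the kept calls and the small p follow largely from the choice by size and by sign, and are a description only. Genes not yet described included SPS100, a protein of the spore wall, at 7.48 and 7.40 on the JP1 arrays and 10.90 and 10.45 on the CAT-1 arrays. PRP46, a splicing factor, had 8.53 and 8.69 on the JP1 arrays and 11.37 and 11.85 on the CAT-1 arrays, and ATG41, of autophagy, 8.72 and 8.47 on the JP1 arrays and 11.90 and 10.88 on the CAT-1 arrays. All 3 were higher in both CAT-1 arrays. YGR210C, a gene with no standard name next to ZPR1, differed by 3.14.

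On the other side stood AAD4, a putative aryl-alcohol dehydrogenase, at 9.92 and 9.79 on the JP1 arrays and 6.71 and 6.95 on the CAT-1 arrays, and SOL4, a 6-phosphogluconolactonase, at 10.27 and 10.57 on the JP1 arrays and 7.80 and 8.15 on the CAT-1 arrays. CRG1, a methyltransferase that protects from cantharidin, had 9.28 and 8.995 on the JP1 arrays and 7.06 and 6.74 on the CAT-1 arrays, and FRM2, a nitroreductase-like protein, 8.92 and 8.87 on the JP1 arrays and 6.73 and 6.72 on the CAT-1 arrays. No CAT-1 array of these 4 genes reached the lower JP1 array. Of 24 genes for alcohols, aldehydes and esters, to which AAD4 belongs, 4 were higher and 8 lower.

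**Figure D4:**
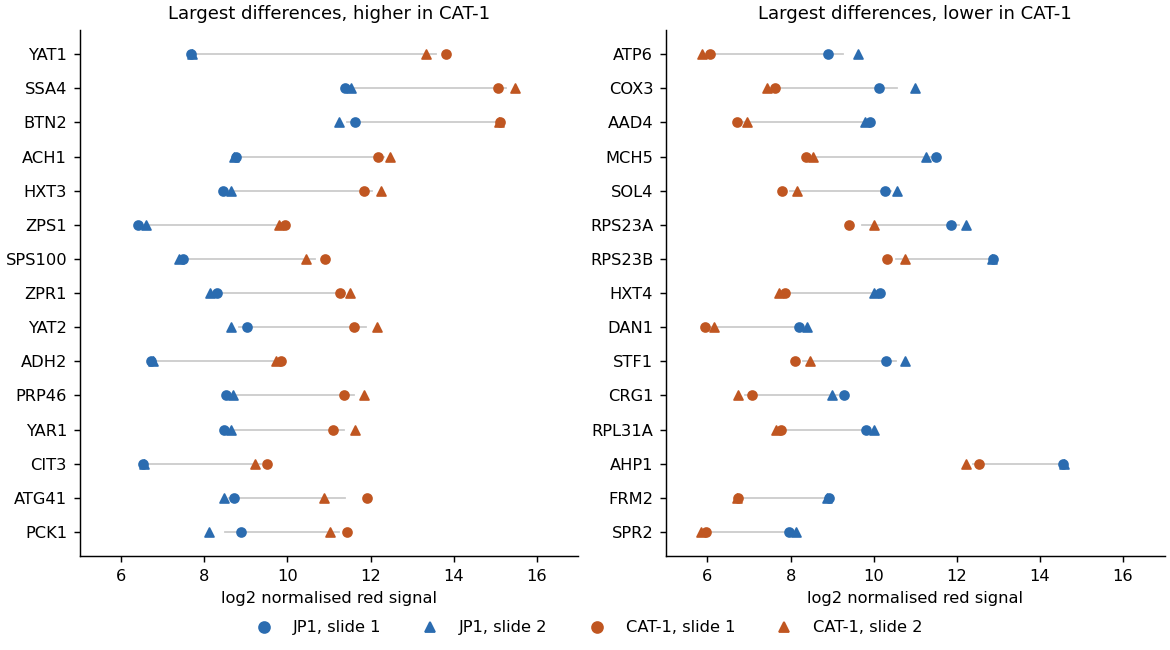
Level (log2 normalised red signal, horizontal axis) on each of the 4 arrays of the 15 genes with the largest difference in each direction that had the same sign in the red signal and in the loess log ratios of both slides. Circles are slide 1 and triangles slide 2. The 30 genes were chosen by the size of their difference, so that the arrays of the strains do not overlap in them is a description. Over all genes tested, 68.6% did not overlap.

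Some genes were well above background on both arrays of 1 strain and on neither of the other. In CAT-1 alone these were 9 genes, of which 7 were at least 2-fold higher, against the lowest signals well above background on the JP1 arrays. They included YMR194C-A (at least 7.69-fold), AYT1, an acetyltransferase (at least 4.77-fold), CSS3 (at least 4.33-fold) and YPR064W (at least 3.34-fold). In JP1 alone they were 515 genes, of which 17 were at least 2-fold higher. Both sets were chosen by this detection, so their differences are a description. Beside ATP6 and DAN1 they included SPR2, a gene of sporulation (at least 4.18-fold), the aquaglyceroporin AQY3 (at least 3.47-fold), SPS4 (at least 3.42-fold) of sporulation and the cell wall protein PIR5 (at least 3.2-fold). The CAT-1 arrays were dimmer, so the numbers for the strains cannot be set against each other.

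Along the chromosomes, the median difference of nuclear genes lay between -0.16 (chromosome VI) and 0.00059 (chromosome V). Called genes of the same direction stood next to each other in 93 runs of 3 or more, which held 319 genes. These runs stand beside 19.6% of all genes called higher and 20.6% lower, and nothing is read from their number. The longest run had 8 genes, all lower in CAT-1, on chromosome VIII in the region of the copper metallothionein CUP1. RSC30, a subunit of a chromatin remodeller in that run, had levels of 9.69 and 9.42 on the JP1 arrays and 8.001 and 7.58 on the CAT-1 arrays, and YHR054C, a partial copy of it, 9.95 and 9.74 on the JP1 arrays and 8.35 and 7.66 on the CAT-1 arrays. Further along it were CPR2 (-1.16), MED6 (-1.04), FYV4 (-0.75) and VMA22 (-0.68), whose calls were all lost in the loess log ratios, where VMA22 turned to 0.18. CUP1-1 (-0.50) and CUP1-2 (-0.45), which lie in a tandem repeat and are near-identical, were lower by small differences whose calls were lost in several alternatives. RSC30 and YHR054C kept theirs in every alternative with a test. Signals of repeated copies cannot be separated here, and copy number was not measured. There were 2 runs of 6 genes. One, lower in CAT-1, went from YEN1 to SPO73 on chromosome V and holds ERG28. In it ERG28 and ACA1 kept their calls in the loess log ratios, and the other 4 lost theirs. The other, higher in CAT-1, went from LCL1 to ARL3 on chromosome XVI. All 6 of its genes lost their calls in the loess log ratios, KTR6 was negative on slide 1 alone (-0.033), and KTR6 and OAZ1 turned negative relative to all genes under 75th percentile centring.

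As a check of the labels, genes deleted in BY4741 were read in both strains. LEU2 had levels of 13.16 and 13.33 on the JP1 arrays and 13.02 and 12.62 on the CAT-1 arrays and MET17 of 12.21 and 12.21 on the JP1 arrays and 12.14 and 12.02 on the CAT-1 arrays, and neither was called. HIS3 was not called (0.06), and URA3 was the 1 of 4 that was lower (difference -0.47, limma adjusted p = 0.0336). Among genes specific to a cells or alpha cells, which diploids keep off, MFA2, STE3 and STE2 were dim. These do not stand for the whole list, of which 10 of 16 tested genes were well above background in red on all 4 arrays. MFA2, of a-factor, had levels of 5.97 and 6.04 on the JP1 arrays and 6.08 and 6.08 on the CAT-1 arrays, and was not well above background on the latter. The a-factor receptor STE3 had 5.999 and 5.99 on the JP1 arrays and 6.46 and 5.96 on the CAT-1 arrays, and the alpha-factor receptor STE2 6.26 and 6.30 on the JP1 arrays and 6.32 and 6.30 on the CAT-1 arrays. The lowest signals well above background lay at 5.83 to 6.13, so neither strain was far above them in these genes. Genes of the mating-type loci were counted in the same list, though diploids do not keep all of them off, and some were brighter. HMRA2 had 11.28 and 11.31 on the JP1 arrays and 10.76 and 10.91 on the CAT-1 arrays. MATALPHA2 had 10.94 and 10.81 on the JP1 arrays and 10.42 and 10.50 on the CAT-1 arrays. HMRA1 had 9.60 and 9.45 on the JP1 arrays and 10.58 and 9.11 on the CAT-1 arrays. Whether the probes of HMRA2 and MATALPHA2 share signal was not tested. MATALPHA1 was dimmer, with 6.86 and 7.05 on the JP1 arrays and 7.46 and 7.09 on the CAT-1 arrays. Of the 16 tested genes of the a-specific and alpha-specific list, 1 (MFA1, 0.48) was higher and 1 (HMRA2, -0.46) lower, both with differences near the threshold. HO, the mating-type endonuclease, was not tested, as its probe was well above background on 1 of the 4 arrays. Of the 13 haploid-specific genes tested, 5 were higher in CAT-1 and 1 lower, the largest difference being that of RDH54, a recombination protein, with 8.07 and 7.88 on the JP1 arrays and 10.098 and 10.35 on the CAT-1 arrays. STE12, the factor of the mating response, was higher by 0.97, a call lost in the loess log ratios, while the G protein subunits GPA1 (0.05) and STE4 (-0.08) were not called. Of the haploid-specific genes, the loess log ratios called 2 higher and 0 lower.

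In lists not yet given, meiosis had 1 higher and 3 lower of 19, and cyclins and cell cycle genes had 1 and 3 of 17. Sodium pumps and arsenic genes had 1 higher and 0 lower of 9, and the asparaginase II cluster 0 and 1 of 5. Histones had 2 higher and 5 lower of 10, HTB2, for histone H2B, being higher by 1.71. The COS family, whose members share sequence, had 1 higher and 5 lower of 9.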

How the data were processed

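The members and gene lists were chosen with earlier results of these data known. Agilent Feature Extraction 10.10.1.1 quantified the images, per the file headers. The deposited columns hold, for each spot, the intensity of the signal and of its local surround, an intensity that the software had corrected itself, a log10 ratio of red to green, and marks (other, no physical unit) for spots well above background, uneven or saturated. What the deposited value table is scaled in (other) is not given in the sources used here. It entered no comparison, since the column named CAT-1 T6h replicate 2 correlated at r = 0.254 with its own array and at 0.862 with a T0h array of JP1. The column named JP1 T6h replicate 1 followed the BY4741 T6h array (0.871) better than its own (0.827), and both slide 2 columns followed theirs. The submitters' processing notes name limma without a version.

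From the median red signals, uneven or outlying spots (0 to 7 per array) were left out, background was corrected by normexp with an offset of 50, the 4 arrays were quantile-normalised, and the 2 spots of a probe were averaged as log2 values. No gene spot was saturated in red. Probes well above background in red on at least 2 of the 4 arrays were tested, which left 5765. The reference table (R64) named 5756 of 6256 probes. CAT-1 was compared with JP1, the 1 comparison made, by the two-sided test of limma 3.58.1 in R 4.3.3, with slide as a block and Benjamini-Hochberg adjustment over all genes tested, which leaves 1 residual degree of freedom and so borrows the spread from all genes. The number of arrays limits the precision. The script was tested on simulated data.

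Named genes are the 15 largest differences each way under the criteria given in the text, up to 4 called genes with the largest difference in each list, genes in runs of neighbours, genes seen in 1 strain, label checks, and enzymes of the same step, the last chosen after values had been seen. The 93 runs were named only where they held 6 genes or more. Alternatives changed the signal, normalisation, filter, block, variance model and replicates, and the centring by gene length, the variance trend and the processed signal on its 75th percentile were chosen after seeing the data.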

Additional observations from a re-analysis of the deposited data

How the results depend on the processing

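Leaving out each array in turn, without the slide block, left 590 to 2304 genes called, with 301 to 1118 higher in CAT-1 and 289 to 1201 lower. The low counts came without JP1 replicate 1 (590) and without JP1 replicate 4 (610, 310 higher and 300 lower), where the spread rests on the CAT-1 pair alone and the lone JP1 array is assumed to vary like it. The loess log ratio called 460 genes, 286 higher and 174 lower, and centring on the 75th percentile called 3765, 3010 higher and 755 lower, with the median of all genes moved by 0.56. The other alternatives called 1616 (no slide block) to 2393 genes (variance trend), within 1.5 times the main count. Of 250 named genes that were called, 115 lost their call in the loess log ratios and 135 kept it. Directions turned, with the cause not tested, in the loess log ratios for ADH5 (-0.00492), FLO1 (-0.11), HSP26 (-0.0711), NDT80 (0.55), PDC5 (-0.0471), THI7 (-0.14), TSA2 (0.0529) and VMA22 (0.18). Relative to the shift of all genes, they turned under 75th percentile centring for ADH5 (-0.23), ALD4 (-0.27), CLB4 (0.0660), HXK2 (-0.0144), KTR6 (-0.21), NDT80 (0.17), OAZ1 (-0.0806), PDC5 (-0.25), SSE2 (-0.26), TDH3 (-0.27) and THI5 (0.21). TDH1 turned with the processed signal on its 75th percentile (0.46), and KTR6 on slide 1 alone (-0.0332). In the red signal these genes differed by at most 0.86. The value table was not run as an alternative, since both slide 1 columns followed another array better than their own, although both slide 2 columns followed their own. The strains were paired by slide. A fit with the replicate number as the block was not made, because the CAT-1 and JP1 samples share no number. On the CAT-1 arrays, signals near background limit what can be seen of weak genes.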
